A study of Homo sapiens with 4 samples.

Results

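Cytosolic and mitochondrial heat shock proteins, the DNAJ co-chaperones and the CCT chaperonin were examined in TAE684-resistant Kelly neuroblastoma cells with and without a hairpin against BORIS. The members were all genes whose symbols begin with HSPA, HSPB, HSPD, HSPE, HSPH, HSP90 or DNAJ, or with CCT and a digit, together with HSF1, CHORDC1, STIP1, BAG3 and TCP1. Chaperones of the endoplasmic reticulum (HSPA5, HSPA13, HSP90B1, DNAJB9, DNAJB11, DNAJC3 and DNAJC10) were left out by rule. HSF2 and AHSA1, which the rule also names, were not analysed here. This gave 90 of 18244 genes, of which 80 are protein-coding and 10 are annotated pseudogenes. The rule goes by letters, so it also holds HSPBP1, an HSP70 cofactor, and HSPBAP1, a protein named for binding a small heat shock protein.

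Kelly, a human neuroblastoma cell line, carries an amplified MYCN gene. All 4 samples were a derivative of it that is resistant to TAE684, a drug that blocks the ALK kinase, and was kept in 1 µM of it. Cells received virus for 24 h and puromycin for 48 h in both groups. The virus carried a hairpin against BORIS (shBORIS, 2 arrays) or one against luciferase (shLUC, 2 arrays), the control. BORIS is the product of CTCFL, a germ-line paralog of CTCF. The labels name 1 hairpin per target, so its effects on other transcripts and those of lower BORIS cannot be told apart. They call the arrays of a group biological duplicates. Every p-value here rests on the spread between duplicates, which the test (limma) pools over genes of like intensity. As deposited a gene's own spread carried no weight, and after centring it carried only part.

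Heat shock proteins are chaperones that bind unfolded stretches of other proteins. HSP70 proteins (HSPA genes) work in cycles of ATP hydrolysis that DNAJ proteins start and nucleotide exchange factors such as HSPH1 end. HSP90 takes clients, many of them kinases, from HSP70 through the adaptor STIP1, while the CCT ring folds actin and tubulin. The transcription factor HSF1 raises many of these genes when unfolded proteins accumulate, by binding repeats of GAA and its complement TTC (heat shock elements) near their start sites.

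The promoters of 5 members are shown because these genes, known to respond to heat, differ in the direction of their change and hold heat shock element letters in the window. Each is the 250 bases before the start of the gene in RefSeq (GRCh38.p14), read 5′ to 3′ on the gene's strand. Capitals mark the motif searched. A paired unit is GAA and then TTC, or TTC and then GAA, with any 2 bases between; a triple unit adds the next alternating unit at the same spacing, so it contains paired ones. Each pattern's reverse complement is in the search, so both strands are covered. The windows of HSPH1, HSP90AA1, DNAJB1, BAG3, HSPD1 and HSPE1 held no match. The 5 shown were picked for holding one and do not stand for all heat-responsive members. HSPA1A lies at chr6:31815293-31815542 (plus strand), HSPA1B at chr6:31827488-31827737 (plus strand), HSPA6 at chr1:161524290-161524539 (plus strand), HSPB1 at chr7:76302423-76302672 (plus strand) and CHORDC1 at chr11:90223050-90223299 (minus strand).
HSPA1A: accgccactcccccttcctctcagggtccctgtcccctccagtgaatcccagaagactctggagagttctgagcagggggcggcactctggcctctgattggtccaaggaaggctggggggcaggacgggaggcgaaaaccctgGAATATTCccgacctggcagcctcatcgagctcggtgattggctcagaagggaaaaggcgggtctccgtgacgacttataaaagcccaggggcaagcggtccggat
HSPA1B: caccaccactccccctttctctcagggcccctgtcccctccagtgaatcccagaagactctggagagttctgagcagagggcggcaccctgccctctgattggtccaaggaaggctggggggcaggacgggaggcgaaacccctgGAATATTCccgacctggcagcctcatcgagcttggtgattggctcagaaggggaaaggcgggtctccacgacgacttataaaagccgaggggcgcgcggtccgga
HSPA6: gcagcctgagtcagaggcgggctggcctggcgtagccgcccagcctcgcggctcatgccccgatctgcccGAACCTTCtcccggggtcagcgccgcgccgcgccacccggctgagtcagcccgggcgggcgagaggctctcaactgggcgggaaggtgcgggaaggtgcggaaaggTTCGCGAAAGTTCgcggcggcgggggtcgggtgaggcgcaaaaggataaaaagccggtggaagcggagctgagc
HSPB1: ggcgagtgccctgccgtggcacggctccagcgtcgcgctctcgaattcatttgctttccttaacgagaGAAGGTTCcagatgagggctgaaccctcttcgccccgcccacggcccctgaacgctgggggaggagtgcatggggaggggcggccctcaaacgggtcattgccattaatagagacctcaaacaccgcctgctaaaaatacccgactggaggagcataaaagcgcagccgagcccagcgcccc
CHORDC1: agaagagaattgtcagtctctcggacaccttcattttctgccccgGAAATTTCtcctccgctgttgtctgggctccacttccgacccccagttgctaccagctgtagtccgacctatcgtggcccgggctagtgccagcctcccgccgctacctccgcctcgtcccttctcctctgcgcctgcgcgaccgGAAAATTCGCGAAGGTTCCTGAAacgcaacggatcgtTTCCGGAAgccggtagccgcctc

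Of the 90 members, 71 had a promoter in the table. A paired unit was found in 16 of the 71 (22.5%), against 11.7% of 27305 promoters of the same length, and a triple unit in 4 (5.63%), against 0.439%. Among 16 textbook targets of HSF1 the numbers were 7 and 3. Most of that list is heat-induced, but it also holds the constitutive forms HSPA8 and HSP90AB1. Both counts include HSPA8. The windows of HSPA1A and HSPA1B were 94.4% identical over 249 bases aligned without gaps. CHORDC1 held 3 triple units, all inside a run from 60 to 38 bases before the start, and HSPA6 held 1. HSPA8, the constitutive HSP70, held triple units GAAAGTTCCAGAA and TTCTGGAAGGTTC, the second from 55 to 43 bases before the start used. The windows of HSPA8 and DNAJB1 overlap the annotated spans of their own genes, so the starts used there are not the outermost ones. Calls are used here relative to the median gene of each array, as explained below. By these, members higher and lower in shBORIS cells both held paired units, in 5 of 17 and 3 of 15 promoters. So did 1 of 24 that passed in neither direction and 7 of 15 that were not tested. The 3 include the near-identical windows of HSPA1A and HSPA1B, and the 5 include DNAJB6, whose probe sets disagree in direction. A match is a string of letters and not a measured site of binding.

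The deposited values are linear intensities of probe sets. They were tested as log2(intensity + 16), which understates the fold change of a dim gene. Each gene was read from its brightest probe set that names it alone. CTCFL itself read 700.6 and 736.9 with shBORIS and 3563 and 3376 with shLUC, 4.74-fold lower (limma adjusted p = 2.41e-92). The size varied between probe sets. Of 6 that passed the intensity filter given below, 5 were lower as deposited. Relative to the median gene the log2 differences of the 6 ran from -3.53 to -0.37. Arrays average over many cells, so fewer cells that express a gene and less RNA per cell cannot be told apart. The median of all tested genes was 0.48 higher in shBORIS cells on the log2 scale. Each difference is therefore given as deposited and also after centring, that is, relative to the median gene of each array. The ERCC spike-in probe sets had median intensities of 24.4 to 25.8 on all arrays. These lie below the 62.2 required for testing a gene and may be mostly background. They therefore say little about how the arrays were scaled. The 3′ over 5′ ratio of the ACTB control, a sign of RNA quality, was 1.36 and 1.32 with shBORIS and 1.46 and 1.38 with shLUC, and its part in the results was not tested. Of 8 measured markers of the noradrenergic neuroblastoma line, all passed the intensity filter, with a summed intensity of 23218 to 23917 with shBORIS and 16831 to 17588 with shLUC. After centring 2 of the 8 rose and 6 fell. Of 3 glial and 9 fibroblast, endothelial and immune markers, 1 each passed the filter. GFAP averaged 78.9 with shBORIS and 59.3 with shLUC, and VWF 79.5 and 66.9. As deposited GFAP was higher (limma adjusted p = 0.00506) and VWF did not pass (0.0876). After centring GFAP did not pass (0.181) and VWF fell (0.0209). Below the filter, CD14 and PTPRC read 24.9 and 11.3 with shBORIS and 24.0 and 14.0 with shLUC. The summed intensity of the glial markers was 179.3 to 199.5 with shBORIS and 130 to 145.1 with shLUC, and that of the fibroblast, endothelial and immune markers 349.8 to 352 and 293.2 to 315.1; their part in the results was not tested.

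As a whole, the chaperone genes were called about as often as other genes of these arrays, with single members far from the median in both directions. A mean intensity of 62.2, the 40th percentile of genes, was required for testing, and 63 members passed. As deposited, 51 of the 63 were higher in shBORIS cells (81.0%, against 77.2% of the 10946 genes tested) and 3 were lower (4.76%, against 4.64%), 54 in all (85.7%, against 81.9%). After centring, 21 rose (33.3%, against 30.3%) and 15 fell (23.8%, against 28.8%), 36 in all (57.1%, against 59.1%). The members' median difference after centring was 0.04. The standard deviation of that difference was 0.38 over the members and 0.39 over all tested genes. The 21 members that rose after centring were higher as deposited too. Of the 15 that fell, 3 were lower as deposited, 9 did not pass and 3 were higher. Probe sets of a gene often disagreed. Of 44 tested members with 2 or more above the filter, 26 had the same sign on all of them after centring, and 40 as deposited. The members rising at least 1.5-fold after centring were 4, and those falling as much were 5. The share of all tested genes at that fold was not counted. The rises include the probe set assigned to the pseudogene HSP90AA4P. The falls include both HSPA1A and HSPA1B, which may read one pool of transcripts.

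**Figure D1:**
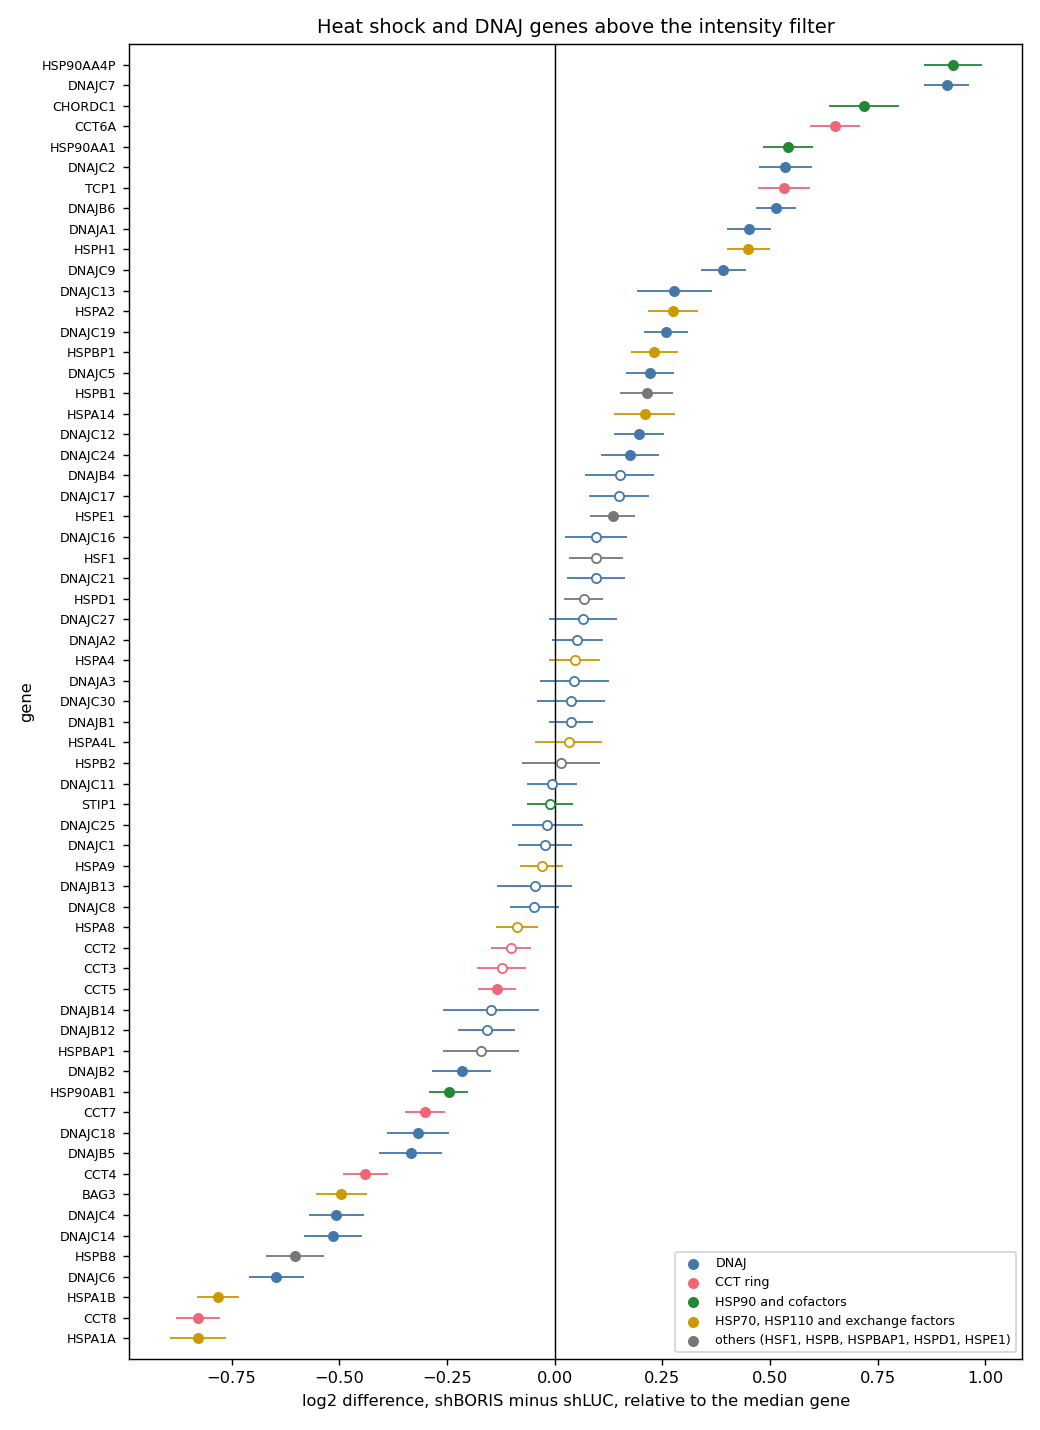
Log2 difference of shBORIS minus shLUC relative to the median gene for the 63 members above the filter, with the standard error from limma as bars. Filled points passed an adjusted p of 0.05 and open points did not. The points run from -0.83 for HSPA1A to 0.93 for HSP90AA4P, and most gene families lie on both sides of 0.

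HSF1, the master regulator of the heat shock response, was higher as deposited, and its centred difference did not pass. Its only probe set read 325.4 and 343.0 with shBORIS and 221.6 and 217.1 with shLUC. Both shBORIS arrays were above both shLUC arrays, by 0.57 as deposited (SE 0.11; limma adjusted p = 4.09e-07). After centring the difference was 0.10 (SE 0.06; adjusted p = 0.214).

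The stress-inducible genes HSPA1A and HSPA1B were, with CCT8, the 3 lowest of the members tested after centring. HSPA1A, the main HSP70 made after heat, read 1134 and 1372 with shBORIS and 1615 and 1579 with shLUC. HSPA1B, its near-identical neighbour on chromosome 6, read 1159 and 1269 against 1559 and 1443. On both probe sets the groups did not overlap and the shBORIS arrays were the lower ones. HSPA1A fell by 0.35 as deposited (SE 0.11; limma adjusted p = 0.00184), and by 0.83 after centring (SE 0.07; adjusted p = 5e-06). HSPA1B fell by 0.30 as deposited (adjusted p = 0.00765) and by 0.78 after centring (adjusted p = 1.51e-06). Leaving out shBORIS replicate 1 ended both calls as deposited (adjusted p = 0.107 for HSPA1A and 0.0807 for HSPA1B), and that of HSPA1B did not pass without shLUC replicate 1 (0.104). With the replicate number as a block they did not pass either (adjusted p = 0.053 and 0.0974). A pair of probe sets that name both genes differed by -0.73 and -0.76 after centring. The genes are near-identical, so the probes may not tell them apart. These may be readings of one pool of transcripts and do not count as independent.

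HSPA6, a human HSP70 gene that is nearly silent without stress, lay below the filter and was not tested. It read 37.8 and 35.3 with shBORIS and 70.3 and 64.1 with shLUC. A probe set shared with its relative HSPA7 read 44.2 and 42.8 against 98.4 and 106.7. Both were lower on each shBORIS array, as were HSPA1A and HSPA1B.

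The other HSP70 genes above the filter were higher in shBORIS cells as deposited. HSPA8, the abundant cytosolic HSP70 of unstressed cells, read 9374 and 10227 with shBORIS and 7454 and 7488 with shLUC. It was higher by 0.39 as deposited (SE 0.08; limma adjusted p = 2.62e-06), and its relative difference of -0.09 did not pass (adjusted p = 0.147). After quantile normalization the difference was 0.21 (adjusted p = 2.86e-04). Of the 5 HSPA8 probe sets above the filter, 2 shared the negative sign of the brightest after centring, and the values ran from -0.09 to 0.14. HSPA9, the mitochondrial HSP70, read 3350 and 3487 against 2513 and 2492, and differed by -0.03 after centring (adjusted p = 0.63). Its 5 probe sets ran from -0.04 to 0.20, and 2 of them shared that sign. HSPA2, known for its role in sperm formation, rose by 0.275 after centring (adjusted p = 0.00235), and the ribosome-associated HSPA14 rose by 0.21 (adjusted p = 0.0263). Of the 4 probe sets of HSPA14, 3 shared that sign, and the values ran from -0.26 to 0.29. The ratio of HSPA8 to HSPA1A within an array is free of any single factor applied to that array, though not of quantile normalization, under which HSPA8 read 0.21 and HSPA1A -0.86. As deposited it was 1.67-fold higher with shBORIS, with the arrays at 0.81 and 0.67 on the log2 scale from the shLUC mean, where the shLUC arrays lay 0.02 on either side. This pair was chosen after its values were seen.

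Of the exchange factors of HSP70, HSPH1 and HSPBP1 rose after centring and HSPA4 and HSPA4L did not pass. HSPH1, an HSP110 protein that also helps to dissolve aggregates, read 1465 and 1581 with shBORIS and 812.8 and 773.5 with shLUC. It rose by 0.93 as deposited and by 0.45 after centring (SE 0.05; limma adjusted p = 4.34e-05). Each of its 8 probe sets was higher on that scale, by 0.28 to 0.67. Its relatives HSPA4 and HSPA4L differed by 0.05 and 0.03 after centring (adjusted p = 0.519 and 0.739). HSPA4 read 1154 and 1191 against 881.2 and 744.8, and its 4 probe sets ranged from -0.30 to 0.36. HSPBP1, an exchange factor and inhibitor of HSP70, rose by 0.23 (adjusted p = 0.00435).

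BAG3 links HSP70 to small heat shock proteins and to autophagy. It read 400.4 and 453.3 with shBORIS and 453.8 and 410.3 with shLUC, so the groups overlapped. It did not differ past the threshold as deposited (-0.02; limma adjusted p = 0.889), but after centring it fell by 0.50 (SE 0.06; adjusted p = 6.73e-05). Its partner HSPB8, a small heat shock protein, read 185.5 and 201.2 against 229.7 and 196.0. It did the same, at -0.13 as deposited (adjusted p = 0.268) and -0.60 after centring (adjusted p = 4.46e-05).

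HSPB1, the widely expressed small heat shock protein HSP27, was higher. It read 2395 and 2675 with shBORIS and 1528 and 1596 with shLUC, with no overlap. It rose by 0.69 as deposited (SE 0.11; limma adjusted p = 1.7e-10) and by 0.21 after centring (SE 0.06; adjusted p = 0.013). The relative call was lost without shBORIS replicate 2 (adjusted p = 0.0727) or shLUC replicate 1 (adjusted p = 0.0639), and with the filter at the 60th percentile (adjusted p = 0.066). Of 7 small heat shock genes measured, 4 lay below the filter, among them the muscle genes HSPB3, HSPB6 and HSPB7. HSPB2, the third tested, differed by 0.015 after centring (adjusted p = 0.901).

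The HSP90 paralogs differed in direction after centring. HSP90AA1, the stress-inducible form, read 2711 and 2804 with shBORIS and 1330 and 1374 with shLUC. Both shBORIS arrays lay far above both controls, a rise of 1.02 as deposited (SE 0.10; limma adjusted p = 6.87e-21) and of 0.54 after centring (SE 0.06; adjusted p = 3.49e-05). HSP90AB1, the constitutive form, read 6719 and 7034 against 5897 and 5807. It was higher by 0.23 as deposited (adjusted p = 0.00896) and differed by -0.25 after centring (SE 0.05; adjusted p = 0.0012), with 0.06 after quantile normalization (adjusted p = 0.169). The deposited call of HSP90AB1 was lost with the replicate block (adjusted p = 0.103) and without shLUC replicate 1 or 2 (adjusted p = 0.105 and 0.148). The HSP90AA1 to HSP90AB1 ratio within an array was 1.73-fold higher with shBORIS, at 0.80 and 0.78 on the log2 scale against 0.04 on either side of 0. That pair, too, was chosen after its values were seen, and after quantile normalization HSP90AA1 read 0.56 and HSP90AB1 0.06.

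The size of the HSP90AA1 rise differed between probe sets. A dimmer one, whose name carries no mark of shared sequence, differed by 0.12 after centring (limma adjusted p = 0.158). One that also names the pseudogenes HSP90AA4P and HSP90AA2P differed by 0.36. The largest rise of any member was that of the probe set assigned to the pseudogene HSP90AA4P, which read 890.9 and 926.8 against 325.4 and 342.3. It rose by 0.93 after centring (SE 0.07; adjusted p = 3.34e-06). This copy is near-identical in sequence to HSP90AA1, so the gene behind the reading is uncertain.

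**Figure D2:**
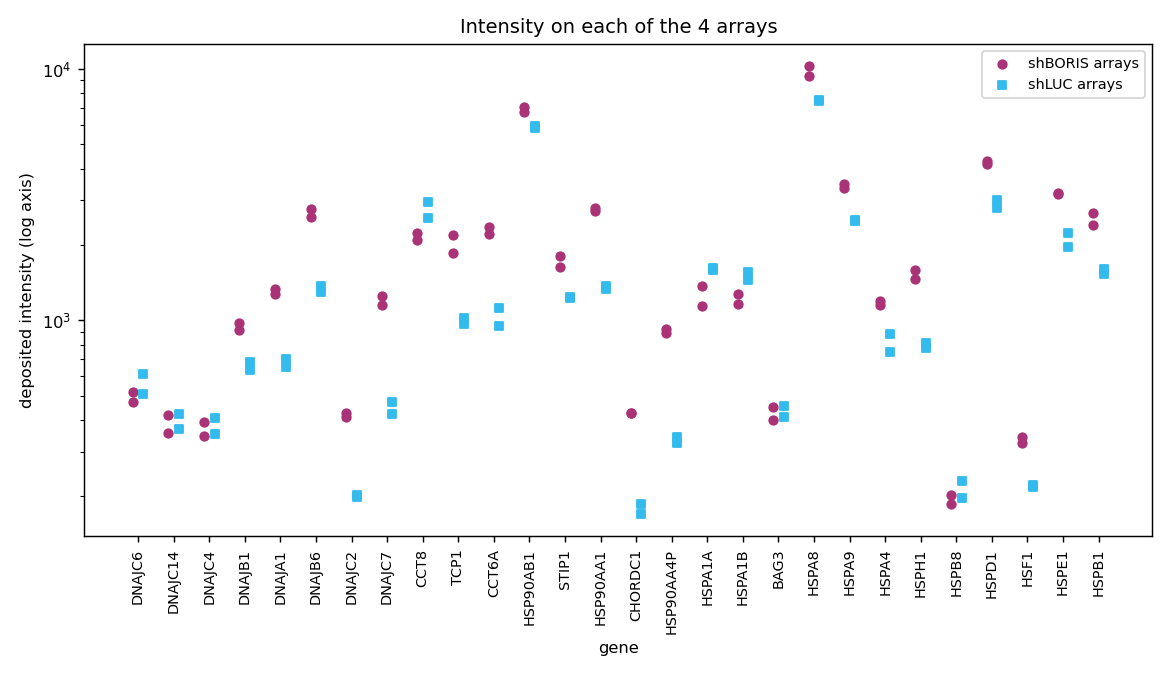
Deposited intensity of 28 members on each of the 4 arrays, on a log axis, with shBORIS arrays as circles and shLUC arrays as squares. HSPA1A, HSPA1B and CCT8 have both shBORIS arrays below both shLUC arrays, while CHORDC1, DNAJC7 and HSP90AA1 show a wide gap the other way.

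Among the partners of HSP90, CHORDC1 and DNAJC7 rose after centring and STIP1 did not pass. CHORDC1 is a zinc-binding HSP90 co-chaperone induced by heat. It read 427.2 and 428.5 with shBORIS and 170.0 and 186.1 with shLUC, a rise of 1.20 as deposited (SE 0.11) and of 0.72 after centring (SE 0.08; limma adjusted p = 4.43e-05). All 5 of its probe sets were higher, by 0.29 to 0.84. DNAJC7, a J-protein with tetratricopeptide repeats that binds both HSP70 and HSP90, read 1149 and 1250 against 473.1 and 424.9. It rose by 1.39 as deposited and by 0.91 after centring (SE 0.05; adjusted p = 1.1e-06), from 1 probe set. STIP1, the adaptor that hands clients from HSP70 to HSP90, read 1626 and 1799 against 1241 and 1223 and differed by -0.01 after centring (adjusted p = 0.891).

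Subunits of the CCT ring, in which 8 different proteins each take a fixed place, differed in opposite directions. CCT6A read 2209 and 2339 with shBORIS and 1122 and 946.7 with shLUC. It rose by 1.13 as deposited and by 0.65 after centring (SE 0.06; limma adjusted p = 9.07e-06). TCP1, the alpha subunit, read 1846 and 2191 against 1018 and 964.9 and rose by 0.53 after centring (SE 0.06; adjusted p = 4.44e-05). CCT8 read 2084 and 2232 against 2965 and 2560 and was one of 3 members lower as deposited, by 0.35 (SE 0.10; adjusted p = 8.55e-04). The deposited fall of CCT8 did not pass without shLUC replicate 1 (adjusted p = 0.109). After centring CCT8 fell by 0.83 (SE 0.05; adjusted p = 1.43e-06). Its 3 probe sets above the filter ranged from -0.83 to -0.77, and a probe set shared with the pseudogene CCT8P1 read -0.91.

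The other subunits lay between. CCT4 was nearly level as deposited (0.04; limma adjusted p = 0.709), and after centring it fell by 0.44 (adjusted p = 6.02e-05), with its 4 probe sets from -0.50 to -0.36. CCT7 and CCT5 fell by 0.30 and 0.13 after centring (adjusted p = 3.35e-04 and 0.0253), while CCT3 and CCT2 read -0.12 and -0.10 and did not pass (adjusted p = 0.089 and 0.0849). In all, 2 of the 8 rose, 4 fell and 2 did not pass after centring, against 30.3% and 28.8% of all tested genes. As deposited 5 were higher and 1 lower, against 77.2% and 4.64%. The ratio of CCT6A to CCT8 within an array was 2.79-fold higher in shBORIS cells, at 1.49 and 1.47 on the log2 scale, with the shLUC arrays at 0.015 on either side of 0. That ratio was chosen after its values were seen. CCT6A and CCT7 each rest on 1 probe set.

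**Figure D3:**
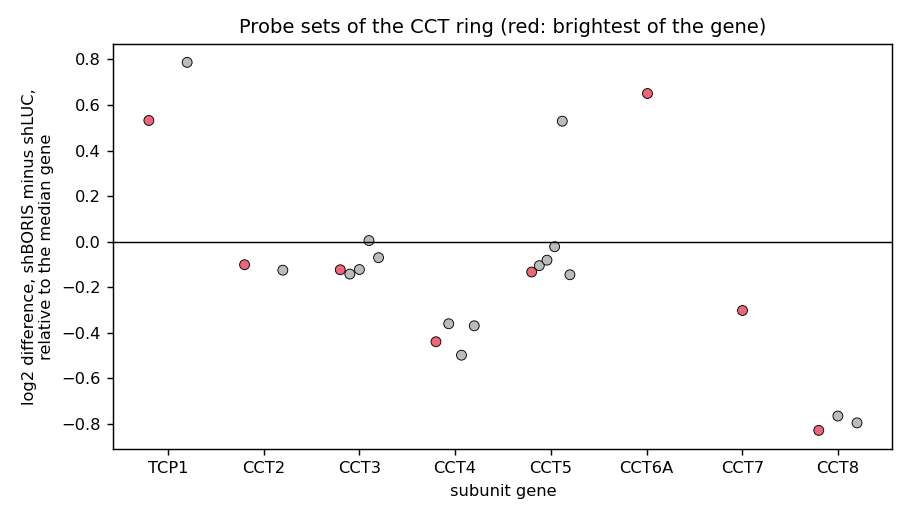
Log2 difference of shBORIS minus shLUC relative to the median gene for each probe set above the filter of the 8 subunit genes of the CCT ring, with the brightest probe set of each gene in red. TCP1 and CCT6A lie above 0.5, all CCT8 probe sets lie below -0.7, and 1 dim CCT5 probe set at 0.53 stands apart from the other 5 of its gene.

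The mitochondrial chaperonin genes HSPD1 (HSP60) and HSPE1 (HSP10) face away from each other on chromosome 2. The 250-base windows before their starts share 104 bases. HSPD1 read 4164 and 4307 with shBORIS and 3012 and 2785 with shLUC, and HSPE1 read 3175 and 3204 against 2222 and 1948. Both were higher as deposited, by 0.55 and 0.61 (limma adjusted p = 3.64e-08 and 4.26e-09). After centring HSPD1 read 0.07 (adjusted p = 0.218) and HSPE1 rose by 0.14 (SE 0.05; adjusted p = 0.0457). The 6 probe sets of HSPD1 above the filter ran from 0.07 to 0.39, with the brightest the lowest. The 3 of HSPE1 ran from -0.04 to 0.14, so the 2 genes are not clearly different. The HSPE1 call was lost without shBORIS replicate 1 or 2 or shLUC replicate 2 (adjusted p = 0.308, 0.0661 and 0.157), with the filter at the 60th percentile (0.299), with no trend in the prior (0.107) and with a pseudocount of 1 (0.0982). DNAJA3, the J-protein of the mitochondrial matrix, differed by 0.05 (adjusted p = 0.645), and DNAJC19, of the import motor at the inner membrane, rose by 0.26 (adjusted p = 0.00162).

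Of the DNAJ genes, 32 of 42 were tested; after centring 10 rose, 6 fell and 16 did not pass, against 30.3% and 28.8% of all tested genes. As deposited 27 were higher and 0 lower, against 77.2% and 4.64%. These shares of rises lie near those of all genes. DNAJA1, a cytosolic partner of HSPA8, read 1271 and 1330 with shBORIS and 699.8 and 651.9 with shLUC. It rose by 0.45 after centring (SE 0.05; limma adjusted p = 4.48e-05), and its 5 probe sets were higher by 0.32 to 0.90. DNAJB1 (HSP40), the heat-induced J-protein of the cytosol, read 916.0 and 975.4 against 683.0 and 631.3. It was higher by 0.52 as deposited (adjusted p = 1.15e-05) and differed by 0.04 after centring (adjusted p = 0.553). Of its 3 probe sets 1 shared that sign after centring, and the values ran from -0.20 to 0.04.

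DNAJC2, which serves nascent chains at the ribosome, read 412.7 and 429.4 against 202.5 and 198.5 and rose by 0.54 after centring (SE 0.06; limma adjusted p = 5.57e-05). DNAJC9, a histone chaperone, rose by 0.39 (adjusted p = 1.4e-04), although the other of its 2 probe sets above the filter read -0.19. DNAJC5, the cysteine string protein of synaptic vesicles, rose by 0.22 (adjusted p = 0.00606). DNAJC12, a partner of the aromatic amino acid hydroxylases that make neurotransmitter precursors, rose by 0.20 (adjusted p = 0.0138), but its other probe set read -0.46.

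DNAJB6, which holds back aggregation of polyglutamine proteins, gave opposite readings. Its brightest probe set read 2573 and 2769 with shBORIS and 1369 and 1300 with shLUC, a rise of 0.51 after centring (SE 0.05; limma adjusted p = 1.28e-05). The other 3 read -0.39, -0.39 and -0.42, and 2 of these held identical values on every array and count as 1 reading. With probe sets that carry a mark of shared sequence left out, DNAJB6 read -0.39 (adjusted p = 0.00176). The direction for this gene is therefore uncertain.

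The 3 lowest DNAJ genes overlapped between the groups as deposited and passed the test as lower only after centring. DNAJC6 (auxilin), which uncoats clathrin vesicles in neurons, read 474.8 and 517.5 with shBORIS and 611.9 and 510.7 with shLUC, at -0.65 after centring (SE 0.06; limma adjusted p = 2.01e-05). DNAJC14, which aids receptor export from the endoplasmic reticulum, read 355.0 and 419.4 against 423.1 and 370.8, at -0.51 (adjusted p = 1.16e-04). DNAJC4 read 347.5 and 395.2 against 406.6 and 352.7, at -0.51 (adjusted p = 8.99e-05). As deposited these read -0.17, -0.04 and -0.03 (adjusted p = 0.158, 0.768 and 0.808). For all 3, every probe set above the filter had the same sign after centring. DNAJB5, DNAJC18 and DNAJB2 fell by 0.33, 0.32 and 0.22 after centring. As deposited DNAJB2 was higher, by 0.26 (limma adjusted p = 0.0189), and DNAJB5 and DNAJC18 read 0.14 and 0.16 and did not pass (adjusted p = 0.205 and 0.153).

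Textbook targets of HSF1, most of them heat-induced, were called in either direction about as often as other genes. The list also holds HSP90AB1 and HSPA8, described above as constitutive. Of 16 measured, 15 were tested; after centring 6 rose (HSP90AA1, HSPH1, DNAJA1, CHORDC1, HSPB1 and HSPE1), 4 fell (HSPA1A, HSPA1B, BAG3 and HSP90AB1) and 5 did not pass, against 30.3% and 28.8% of all tested genes. HSPA1A and HSPA1B count as 2 of the falls although their probe sets may read one pool of transcripts. The targets' median was 0.04, as for all tested members. As deposited 12 were higher and 2 lower, against 77.2% and 4.64%. Of the genes with printed promoters, CHORDC1 and HSPB1 rose, HSPA1A and HSPA1B fell, and HSPA6 was lower on every shBORIS array but not tested.

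**Figure D4:**
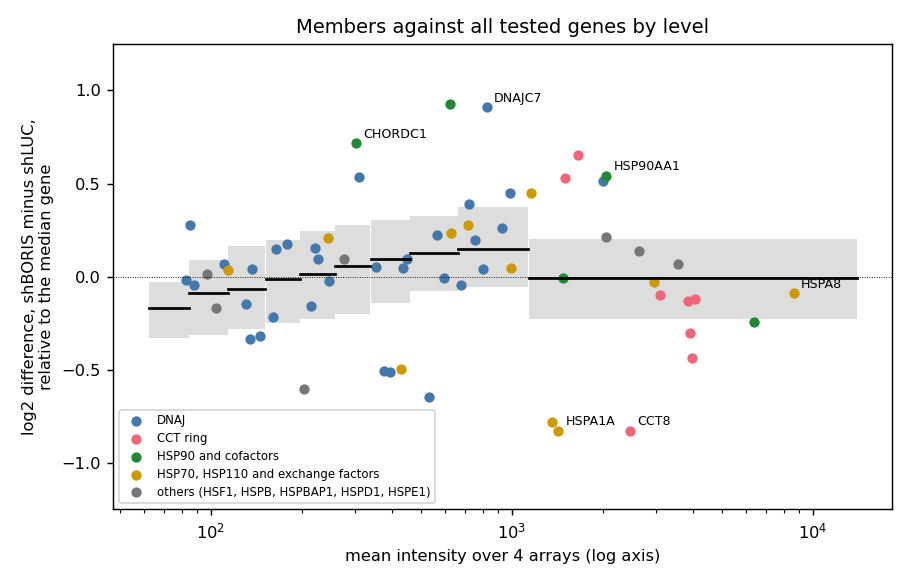
Log2 difference of shBORIS minus shLUC relative to the median gene against mean intensity (log axis) for the 63 members, with the median (black line) and the middle 50% (grey) of all tested genes in each of 10 equal groups by level. In the brightest group, which holds 20 members, all genes had a median of -0.01 and the members one of -0.06, while HSPA1A, HSPA1B and CCT8 lie below the grey band and CCT6A, TCP1 and HSP90AA1 above it.

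Differences of all tested genes varied with level. In the 10 groups by level their median after centring ran from -0.17 in the dimmest to 0.15 in the ninth and -0.01 in the brightest. The 27 members below the filter had mean intensities of 9.74 to 62.0. They include CCT6B, a CCT subunit of the testis, DNAJB7, DNAJB8 and HSPB9, and 9 of the 10 pseudogenes.

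Other folding genes, from lists chosen with earlier results known, were mostly higher as deposited and went both ways after centring. Their counts stand against 77.2% of all tested genes higher and 4.64% lower as deposited, and 30.3% and 28.8% after centring. Of 15 HSP90 co-chaperones outside the rule, 13 were higher and 0 lower as deposited, and 6 rose and 4 fell after centring. SUGT1, which ties HSP90 to kinetochore assembly, rose by 0.62, and FKBP5, a steroid receptor co-chaperone, by 0.43. TOMM34 fell by 0.56 and TRAP1, the mitochondrial HSP90, by 0.45, and neither passed as deposited (limma adjusted p = 0.509 and 0.805). Of 8 exchange factors 7 were higher and 1 lower as deposited, and 3 rose and 1 fell after centring. BAG2, an inhibitor of the ligase STUB1, rose by 0.82, while BAG4 fell by 1.00 and was also lower as deposited, at -0.52 (limma adjusted p = 2.44e-06).

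Prefoldin, which passes actin and tubulin to the CCT ring, and tubulin cofactors made up a list of 16. As deposited 11 of them were higher and 0 lower, while after centring 3 rose and 7 fell. PFDN6 fell by 0.56, TBCB by 0.46 and TBCA by 0.43, while URI1, a prefoldin relative, rose by 0.60. As deposited PFDN6, TBCB and TBCA did not pass (limma adjusted p = 0.49, 0.856 and 0.686). Of 8 mitochondrial proteases and disaggregases 6 were higher and 0 lower as deposited, and 3 rose and 2 fell after centring. CLPB, which dissolves aggregates, read -0.59 after centring and did not pass as deposited (limma adjusted p = 0.337). Of 11 other HSF1 regulators and targets 8 were higher and 0 lower as deposited, and 2 rose and 5 fell after centring. SERPINH1 (HSP47), the collagen chaperone and a heat-induced gene, rose by 0.86, and the segregase VCP fell by 0.70 but did not pass as deposited (-0.22; limma adjusted p = 0.0597).

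The endoplasmic reticulum chaperones that the rule leaves out were set beside the members. As deposited 5 of the 7 were higher and 1 was lower (77.2% and 4.64% of all tested genes). After centring 3 fell, 1 rose and 3 did not pass (28.8% of all tested genes fell and 30.3% rose), with a median of -0.18 against 0.04 for the members. HSPA5 (BiP), their HSP70, fell by 0.45 as deposited (limma adjusted p = 1.59e-05) and by 0.92 after centring (SE 0.07; adjusted p = 4.18e-06). HSP90B1, their HSP90, overlapped between the groups and did not pass as deposited (0.07; adjusted p = 0.444), and fell by 0.41 after centring (adjusted p = 4.34e-05). HSPA1A and HSPA1B were the cytosolic HSP70 genes nearest to HSPA5 in size, and HSP90AA1 went the other way from HSP90B1 after centring. The difference between the lists was not tested.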

How the data were processed

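The 4 samples were hybridised to Affymetrix PrimeView arrays, and the authors deposited 1 probe set intensity per array on a linear scale. The submitters' processing notes list MAS5, R 3.1.3 and affy with no role for any of them, and how arrays were scaled was not stated. Of 49495 probe sets, 202 controls, 1333 naming several genes and 2682 without annotation were left out of the tests. Symbols of 45208 of the other 45278 were updated through Entrez identifiers (RefSeq, GRCh38.p14). Each gene took its brightest probe set over the 4 arrays, and genes with a mean intensity under the 40th percentile (62.2) were not tested.

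Values were log2(intensity + 16). The 10946 genes were tested with limma 3.58.1 (R 4.3.3) in a model of the hairpin alone, with an intensity trend in the prior, 2 residual degrees of freedom, two-sided p and Benjamini-Hochberg adjustment over all genes tested, at a threshold of 0.05. As deposited, limma's prior had infinite degrees of freedom, so its smallest p-values carry little meaning beyond their order. After centring it had 7.94. The fit was checked on simulated data in which few genes differed, in both directions alike. In the real data 59.1% of tested genes were called after centring, so the check does not bear on that case. The members and lists were chosen with earlier results of these data known. Values on all arrays were given for a fixed set of 18 measured members of known role and for the 8 largest rises and 8 largest falls after centring among called members with no overlap of arrays on that scale; up to 4 genes of each other list were named, by smallest p, and further members by role or count after their values were seen. The number of arrays limits the precision. Same-numbered arrays deviated with a correlation of 0.10, and nothing in the labels says that the numbers pair samples. Alternatives are given in the closing section.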

Additional observations from a re-analysis of the deposited data

How the results depend on the processing

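The alternatives were other pseudocounts (1 and 64), filters (none and the 60th percentile), the mean of a gene's probe sets, no trend in the prior, quantile normalization, centring on the ERCC probe sets (which cancels after median centring and was run as deposited only), the replicate block, each array left out in turn, and, chosen after seeing the data, only probe sets not ending in _s_at or _x_at. The ERCC medians lay below the intensity filter, so centring on them is a weak check. The count of members higher as deposited (51) became 18 after quantile normalization. That of members lower as deposited (3) became 5 with no filter, 1 without _s_at and _x_at probe sets, 15 after quantile normalization, 1 with the replicate block, and 1 to 4 with an array left out (1 without shBORIS replicate 1 or shLUC replicate 1). After centring, the 21 rises became 12 without _s_at and _x_at probe sets, where 49 members were tested, and 16 to 19 with an array left out; the 15 falls became 23 with no filter, where 90 were tested, and 13 to 17 with an array left out. With the replicate block the counts were 49 higher and 1 lower as deposited, and 21 and 17 after centring; with 2 pairs the block leaves 1 degree of freedom.

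Signs turned mainly for values that were not called. As deposited, BAG3 read -0.104 to 0.068 with an array left out, DNAJC14 -0.152 to 0.079 (0.099 with the mean of probe sets) and DNAJC4 -0.128 to 0.068 (0.042). After quantile normalization DNAJB1, HSPA4 and STIP1 read -0.085, -0.065 and -0.067 as deposited. After centring, quantile normalization turned DNAJB1 (-0.055), HSPA4 (-0.035), HSP90AB1 (0.058), HSPA8 (0.207) and HSPA9 (0.06); the 60th percentile filter turned DNAJB1 (-0.033), HSPA4 (-0.023) and HSPD1 (-0.002); no filter turned HSPA8 (0.027), HSPA9 (0.085) and STIP1 (0.106). The pseudocount of 64 turned HSPA9 (0.035) and STIP1 (0.048), and the mean of probe sets DNAJB1 (-0.025), DNAJB6 (-0.127) and HSPA9 (0.107). Without _s_at and _x_at probe sets, DNAJB6 read -0.388, HSPA4 -0.059, HSPA8 0.113 and HSPE1 -0.042, and HSP90AA1 read 0.123 and was not called (limma adjusted p = 0.15). With an array left out, HSPA4 read -0.019 to 0.113, HSPA9 -0.077 to 0.017 and STIP1 -0.052 to 0.033. The cause of these changes was not tested.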
